A study of Mus musculus with 16 samples.

Results

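The cytosolic ribosomal protein genes of mouse liver were followed across ethinylestradiol and MI763F treatment. They were taken by symbol: every row named Rpl or Rps followed by a digit, with Rplp0, Rplp1, Rplp2 and Rpsa. Symbols marked -ps and the Rps6k kinases were left out. This gave 85 of the 13006 genes in the table. Of them, 77 encode canonical ribosomal proteins, 46 of the large subunit and 31 of the small subunit. A further 7 are expressed copies or paralogues (Rpl22l1, Rpl36al, Rpl37rt, Rpl7l1, Rps27l, Rps27rt and Rps4l). The last, Rps19bp1, fits the letters but encodes a binding protein of Rps19. The rule left out 31 symbols marked -ps and 5 Rps6k kinases. It does not cleanly divide genes from pseudogenes. The annotation types Rpl10-ps3 and Rps12-ps3, left out, as protein coding and Rpl37rt, kept, as a pseudogene. All 85 genes passed the filter on low counts.

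Liver poly(A) RNA was sequenced from mice whose genotype is labelled Humanized PXR-CAR-CYP3A4/3A7, which all groups share. In these mice human forms of 2 xenobiotic receptors and of drug-metabolising enzymes are in place. EM mice were given the cholestatic estrogen ethinylestradiol (EE) by subcutaneous injection at 10 mg/kg for 7 days, and MI763F by gavage at 2.5 mg/kg for 6 days from day 2. EV mice received EE alone, CM mice MI763F alone, and CV mice the propylene glycol vehicle. MI763F is known from the labels by its code name; whether mice without it received its oral vehicle is not stated there. Each group held 4 libraries. The labels do not say that each library came from its own animal, so p-values measure the spread between these libraries, which may be technical. In bulk liver, fewer cells of a type and less RNA per cell cannot be told apart.

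The cytosolic ribosome joins a small subunit, which reads the mRNA, to a large subunit, which forms the peptide bond. Its proteins are made in near-equal numbers, and many of their mRNAs begin with a pyrimidine tract (a 5′ terminal oligopyrimidine, or TOP, motif) through which mTORC1 and Larp1 control translation. Hepatocytes make large amounts of ribosome for the export of plasma proteins.

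The 30 bases around the annotated start are shown for genes with large EE differences and for Rplp0, which moved little with TMM factors, because the tract lies there. They are RefSeq sequences on the gene's strand in build GRCm38.p6, 10 bases before the start and 20 from it on, and capitals mark the tract found. These genes were picked after their values were seen.
Rps2 (chr17:24720053-24720082, plus strand): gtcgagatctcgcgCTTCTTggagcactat
Rps18 (chr17:33955646-33955675, minus strand): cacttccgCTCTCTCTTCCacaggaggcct
Rps27rt (chr9:114982720-114982749, minus strand): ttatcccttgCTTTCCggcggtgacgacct
Rpl22l1 (chr3:28805498-28805527, plus strand): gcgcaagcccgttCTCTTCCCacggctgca
Fau (chr19:6057937-6057966, plus strand): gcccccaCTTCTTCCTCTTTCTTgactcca
Rpl24 (chr16:55966265-55966294, plus strand): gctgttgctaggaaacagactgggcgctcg
Rplp0 (chr5:115559457-115559486, plus strand): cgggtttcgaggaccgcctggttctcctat

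A tract was a C within 5 bases of the annotated start, on the gene's strand, followed by C or T to a length of at least 5 bases. Of the 64 ribosomal protein genes with a RefSeq entry, 30 (46.88%) held one, against 23.94% of the 9447 genes of the table with an entry and 21.16% of all 27025 genes with one. Mitochondrial ribosomal protein genes stood at 24.64% (17 of 69). Annotated starts can lie a few bases from the start in use, so the share describes these windows only.

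The libraries held 14115384 to 21473227 estimated counts. The deposited values behave as if already divided by gene length, so levels are compared between genes as CPM (counts scaled to a fixed library total) without a further length correction. The scaling factors that correct for library composition (TMM) were 1.10 to 1.23 with EE and 0.833 to 0.910 without it. The 20 most abundant genes held 23.8% of counts in EM, 23.6% in EV, 27.1% in CM and 27.8% in CV livers. With library totals alone, the median log2 fold change of all 12918 genes tested moved by 0.49 in EV against CV, by 0.38 in EM against CM and by 0.37 in EM against CV. The sign of a fold change after EE can therefore depend on the scaling. Values are with TMM factors unless library totals are named.

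Measured against library totals, the ribosomal protein genes took a larger share of the counts in livers with EE. The share was 4.30, 4.49, 4.28 and 4.12% in EM livers and 4.56, 4.30, 4.24 and 4.19% in EV livers. It was 3.52, 3.64, 3.39 and 3.48% in CM livers and 4.23, 3.59, 3.23 and 3.45% in CV livers. CV replicate 1 stood above the other CV libraries and within the range of the EE libraries, and without it the EE and non-EE libraries did not overlap. The means were 4.30 ± 0.149% in EM, 4.32 ± 0.162% in EV, 3.51 ± 0.105% in CM and 3.62 ± 0.429% in CV (SD, n = 4 each).

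With TMM factors the order of the groups turned round. The summed level was 38441 ± 982 CPM in EM, 35877 ± 1137 CPM in EV, 40721 ± 1490 CPM in CM and 42110 ± 5264 CPM in CV (SD, n = 4 each). The highest EV library (37380 CPM) lay below the lowest CV library (37865 CPM) and below the lowest EM library (37623 CPM). EM libraries reached 39869 CPM and so overlapped CM libraries, the lowest of which held 39244 CPM. The rise as a share of all counts and the fall against the composition-corrected scale are measurements of the same libraries.

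**Figure D1:**
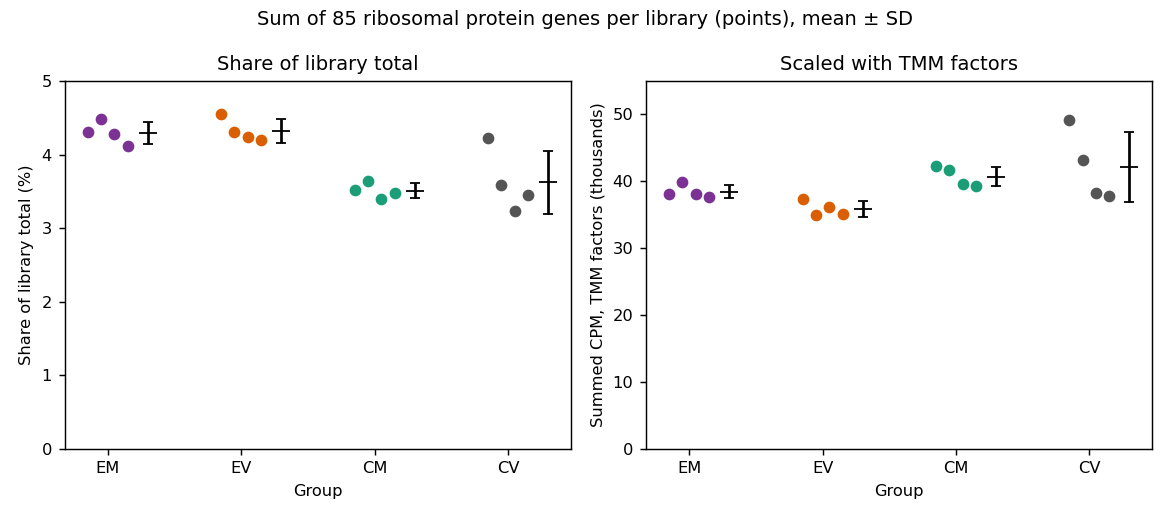
Summed level of the 85 ribosomal protein genes in each library (points) with mean ± SD (n = 4 per group). The left axis is the share of the library total in percent, higher in EM and EV than in CM and in 3 of the 4 CV libraries; the right axis is the summed CPM with TMM factors (axis values × 1000), lowest in EV at 35877 CPM.

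For EE without the ligand, 38 ribosomal protein genes fell and 1 rose in EV against CV with TMM factors, by edgeR's quasi-likelihood test at an adjusted p of 0.05. Over all genes tested, 24.9% were called lower and 25.5% higher. The median SE was 0.09 for the 85 genes and 0.17 for all genes. Smaller differences could therefore be called among the 85, and the shares are not like for like. DESeq2 called 42 of the genes lower and 1 higher, where 25.8% of all genes were lower and 25.9% higher. The median log2 fold change of the 85 genes was −0.21, beside 0.00 for all genes, and 72 of the 85 were below 0. Both subunits took part: 19 of 46 large-subunit and 15 of 31 small-subunit genes fell, with medians of −0.20 and −0.23. The falls were small, and 6 of the 38 were 1.5-fold or more.

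With library totals 53 ribosomal protein genes were called higher in EV and 1, Rps2, lower, where 54.6% of all genes were called higher and 10.3% lower. The median was 0.27, against 0.49 for all genes, so the distance from the typical gene was −0.22 on either scale. Of the 38 genes lower with TMM factors, 7 were called higher, 30 were not called and 1 was lower with library totals. A further 45 genes not called with TMM factors were called higher. Rps2 and Rpl22l1 kept both call and direction on both scales.

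Rps2, a small-subunit protein near the mRNA entry channel, had the largest fall among the genes called. It stood at 748, 826, 802 and 855 CPM in EM and 764, 687, 671 and 671 CPM in EV, against 1132, 1049, 1111 and 1146 CPM in CM and 1401, 1272, 1042 and 1067 CPM in CV. With TMM factors no library with EE reached a library without it. Scaled by library totals they overlapped, as in EM replicate 4 (936) and CV replicate 3 (879). The log2 fold change in EV against CV was −0.78 ± 0.09 (SE, adjusted p = 7.73e-06), and −0.29 with library totals (adjusted p = 0.0132).

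Rps27rt, the row that holds nearly all reads of the Rps27 sequence, lay at 750.0, 768, 746 and 722 CPM in EM and 735, 693, 742 and 745 CPM in EV. CM livers had 1119, 1052, 1029 and 979 CPM and CV livers 1365, 1094, 1094 and 976 CPM. The EE libraries again lay apart from the others with TMM factors, and overlapped them with library totals. The log2 fold change was −0.64 ± 0.09 in EV against CV (adjusted p = 3.18e-05) and −0.15 with library totals (adjusted p = 0.133). Rps27 itself held 1.04% of the counts of this pair and scattered: 25.3, 4.45, 7.95 and 5.53 CPM in EM, 4.27, 2.33, 5.25 and 5.46 CPM in EV, 35.5, 6.41, 19.5 and 4.31 CPM in CM, and 6.41, 12.5, 7.56 and 6.66 CPM in CV. Rps27 was not called in EV against CV (log2 fold change −0.94 ± 0.67, adjusted p = 0.264), though it was with only the EV and CV libraries in the fit (−0.95, adjusted p = 0.0275), and how reads were divided between the pair is not given in the sources used here.

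Rpl36, a large-subunit protein, had 501, 512, 495 and 518 CPM in EM and 487, 446, 475 and 399.7 CPM in EV, against 684, 661, 673 and 619 CPM in CM and 809.9, 806, 636 and 586.9 CPM in CV. Rps18, in the head of the small subunit, had 652, 694, 654 and 714 CPM in EM and 644, 570.6, 598 and 528 CPM in EV, against 868, 834, 842 and 856 CPM in CM and 1069, 909, 784 and 785 CPM in CV. In both genes all EE libraries lay below all others with TMM factors, and overlapped them with library totals. Rpl36 fell by 0.65 ± 0.10 and Rps18 by 0.60 ± 0.10 on the log2 scale in EV against CV (adjusted p = 8.33e-05 and 0.000107). With library totals neither was called (−0.16, adjusted p = 0.142, and −0.11, adjusted p = 0.308).

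Rpl24, which forms a bridge between the subunits, had 386, 401, 399 and 396 CPM in EM and 369, 302, 347 and 351 CPM in EV, against 494, 480.2, 468 and 465 CPM in CM and 611, 538, 461 and 447 CPM in CV. It fell by 0.59 ± 0.09 on the log2 scale in EV against CV (adjusted p = 9.34e-05), and was not called with library totals (−0.10, adjusted p = 0.324). Rps27l, a paralogue of Rps27 known as a p53 target, averaged 318 ± 10.4 CPM in EV and 439 ± 43.6 CPM in CV livers, with no overlap and a log2 fold change of −0.46 ± 0.08 (adjusted p = 0.000313). Rpl11, which together with Rpl5 can bind and inhibit Mdm2, averaged 289 ± 24.8 CPM in EV and 392 ± 43.2 CPM in CV livers and fell by 0.44 ± 0.09 (adjusted p = 0.00117). With library totals the sign turned for both and neither was called (0.02, adjusted p = 0.849 for Rps27l, and 0.04, adjusted p = 0.669 for Rpl11).

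Rpl22 and its paralogue Rpl22l1 moved in opposite directions in EV against CV with TMM factors. Rpl22 is a large-subunit protein, and in mice it is known to hold down Rpl22l1, a link that was not tested here. Both genes had higher means in EM than in EV livers on either scale. With library totals the means were 369.6 and 345.5 for Rpl22 and 150.3 and 136.0 for Rpl22l1. Rpl22 had 346, 344, 309.6 and 322 CPM in EM and 299.97, 293, 280.3 and 273 CPM in EV, against 343, 382, 361 and 359 CPM in CM and 468, 421, 373 and 365 CPM in CV. With TMM factors all EV libraries lay below all CV libraries, while EM and CM libraries overlapped. Scaled by library totals, EV and CV overlapped and all EM libraries lay above all CM libraries. Its log2 fold change was −0.51 ± 0.08 in EV against CV (adjusted p = 0.000109) and −0.13 ± 0.08 in EM against CM (adjusted p = 0.237). With library totals these were −0.02 (adjusted p = 0.865) and 0.25 (adjusted p = 0.0242).

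Rpl22l1 had 149, 136, 121 and 132 CPM in EM and 123, 127, 109 and 90.9 CPM in EV, against 56.4, 67.8, 79.9 and 90.2 CPM in CM and 110.3, 72.4, 64.9 and 66.8 CPM in CV. All EM libraries exceeded all CM and CV libraries, and EV overlapped CV only through CV replicate 1. The gene rose by 0.87 ± 0.18 in EM against CM (adjusted p = 0.00119) and by 0.77 ± 0.18 in EM against CV (adjusted p = 0.00247). It rose by 0.52 ± 0.17 in EV against CV (adjusted p = 0.022), a call lost when any one of CV replicates 2, 3 and 4 or EV replicates 1 and 2 was left out (adjusted p = 0.056, 0.0674, 0.0671, 0.0691 and 0.0766). With library totals the rise was larger, at 1.24, 1.15 and 1.01 in the same order of comparisons.

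Rplp0, the base of the stalk that recruits the elongation factors, was not called with TMM factors. It had 569.25, 616, 640.4 and 599.8 CPM in EM and 625, 582.1, 609.5 and 604 CPM in EV, against 636, 628, 590.4 and 508 CPM in CM and 619, 561, 556 and 522 CPM in CV. The groups overlapped, and the log2 fold change in EV against CV was 0.10 ± 0.08 (adjusted p = 0.321). Scaled by library totals the same gene had 762, 717, 715 and 723 in EV and 532, 467, 468 and 475 in CV livers, a difference of 0.59 (adjusted p = 1.03e-05). Rplp1, the most abundant of the 85 genes in every group, averaged 1424 ± 41.5 CPM in EM, 1271 ± 81.4 CPM in EV, 1506 ± 69.6 CPM in CM and 1474 ± 219 CPM in CV. Rplp1 and Rplp2, the other stalk proteins, lay at −0.21 and −0.20 in EV against CV, about the median of the 85 genes. Neither was called by edgeR's quasi-likelihood test (adjusted p = 0.0722 and 0.0721), while DESeq2 called both lower (adjusted p = 0.0389 and 0.0415). By edgeR, Rplp1 was called lower without CV replicate 3 or 4 (adjusted p = 0.0316 and 0.0307), and Rplp2 without CV replicate 4 or EV replicate 1 (adjusted p = 0.0275 and 0.044). With library totals both were called higher (0.27 and 0.29, adjusted p = 0.0149 and 0.0102).

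Several other genes were not called by edgeR with TMM factors. Rpl41, a very short basic peptide, averaged 1249 ± 51.1 CPM in EV and 1271 ± 240.5 CPM in CV (log2 fold change −0.02 ± 0.12, adjusted p = 0.883). Rpl13a, which also serves in translational silencing outside the ribosome, averaged 1157 ± 69.7 CPM in EV and 1352 ± 198 CPM in CV (−0.22 ± 0.10, adjusted p = 0.0871). With library totals Rpl41 and Rpl13a were called higher (0.46 and 0.26, adjusted p = 0.00228 and 0.047). Rpl3, at the peptidyl transferase centre, Rps3, at the mRNA entry, Rps4x and Rps19, a gene mutated in Diamond-Blackfan anaemia, had log2 fold changes of −0.06, −0.13, −0.09 and −0.10, none of them called. With library totals all 4 were called higher (0.43, 0.36, 0.40 and 0.39). Rpsa, also known as a laminin receptor, was at −0.22 ± 0.09 (adjusted p = 0.0643). Rpsa was called lower by DESeq2 (adjusted p = 0.0378), with near-identical rows summed (adjusted p = 0.0478) and without CV replicate 3, CV replicate 4 or EV replicate 4 (adjusted p = 0.0371, 0.0299 and 0.0441). With library totals it was called higher (0.27, adjusted p = 0.015).

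Across the 85 genes the EV against CV log2 fold change had little relation to transcript length (Pearson r = 0.18, Spearman rho = 0.07) or to level (r = −0.07, rho = −0.13). The genes share the same libraries and scaling factors, so these values only describe the spread. The median log2 fold change was −0.20 in the 30 genes with a tract found, 12 of them lower. It was −0.18 in the 34 genes without one found, 15 of them lower. A gene with none at its annotated start may have a tract at the start in use. This split therefore cannot show whether the tract matters.

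**Figure D2:**
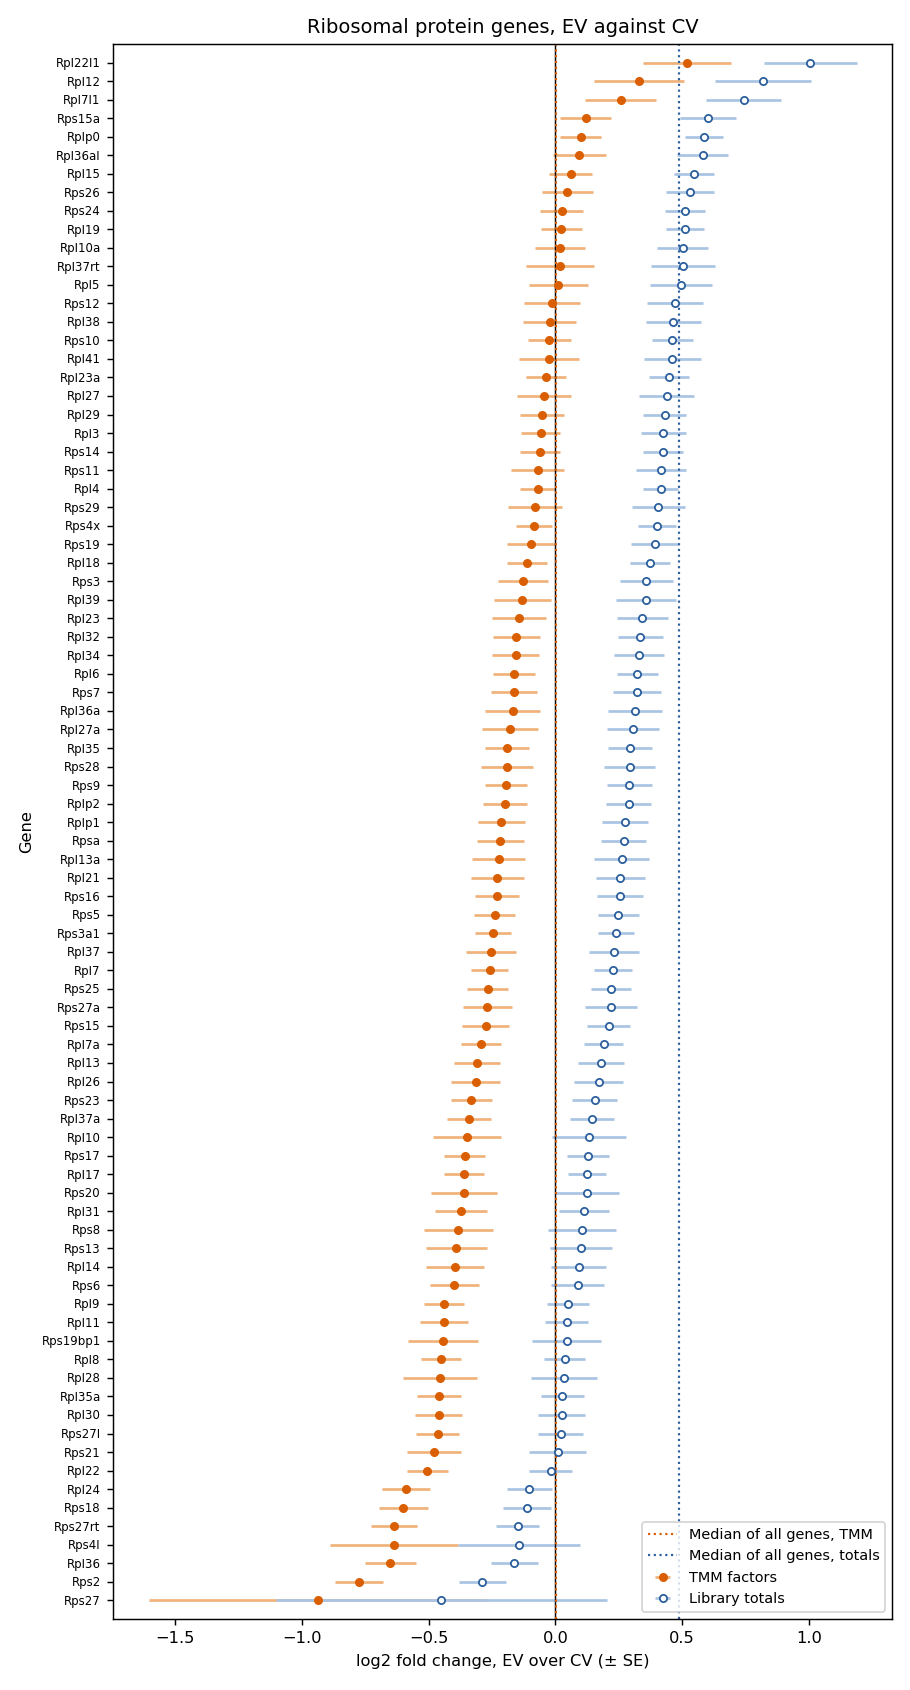
log2 fold change in EV over CV livers (± SE) of the ribosomal protein genes shown, with TMM factors (filled) and library totals (open); dotted lines mark the medians of all genes tested, 0.00 and 0.49. Most genes lie left of the line of their own scale, and the whole set shifts by about the same distance between scales.

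**Figure D3:**
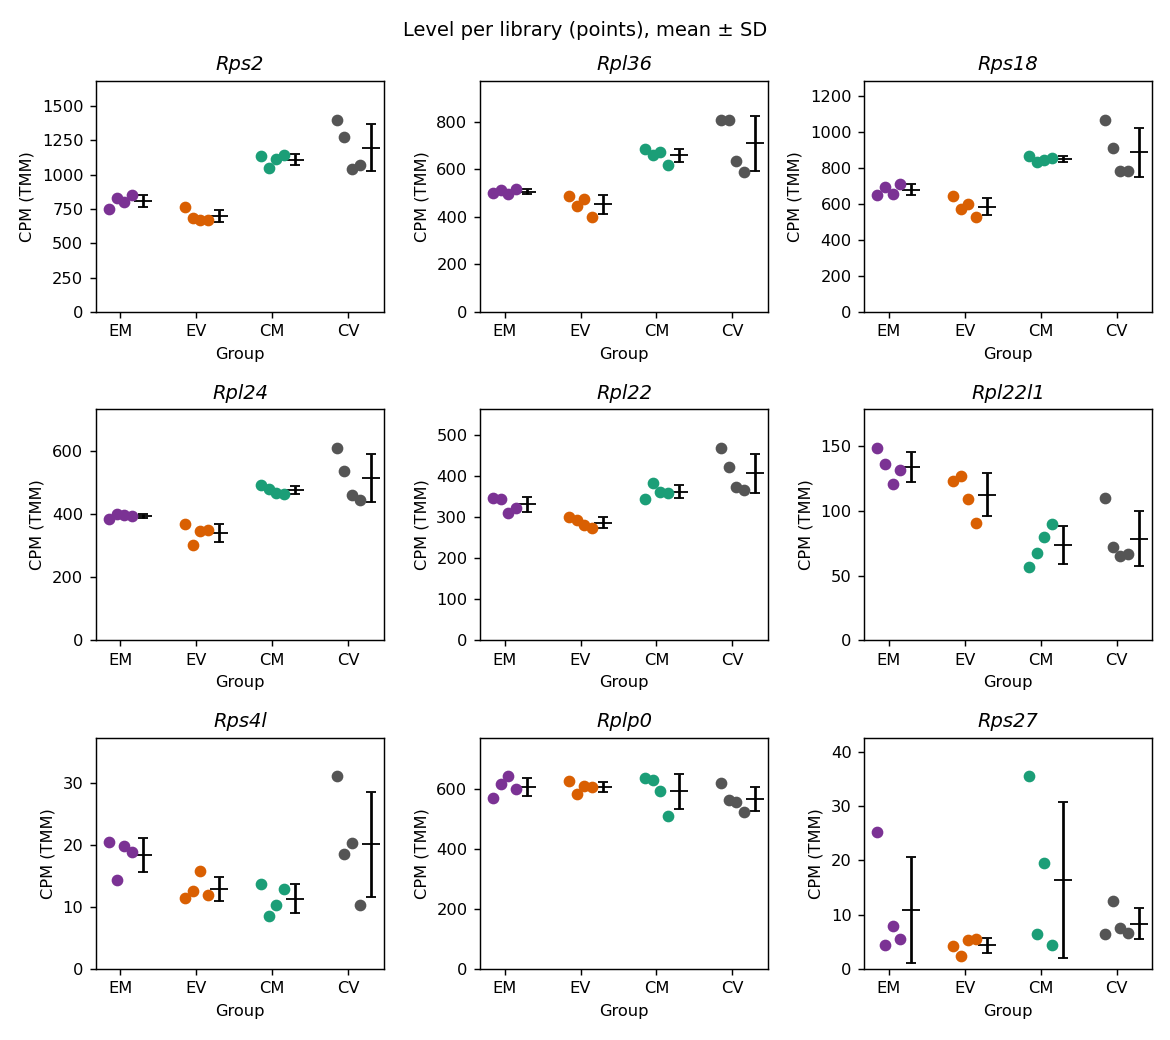
CPM with TMM factors of 9 genes in each library (points) with mean ± SD (n = 4 per group). Rps2, Rpl36, Rps18 and Rpl24 are lower in all EM and EV libraries than in all CM and CV libraries, Rpl22l1 has its highest mean in EM, and Rplp0 overlaps in all groups.

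With the ligand in both groups, fewer of the genes were called for EE. In EM against CM, 10 ribosomal protein genes fell and 2 rose with TMM factors, where 18.6% of all genes fell and 19.4% rose. The median was −0.08. The genes that fell were Rps27rt, Rps2, Rpl11, Rpl36, Rps18, Rpl24, Rpl7a, Rpl30, Rpl17 and Rpl9, with log2 fold changes of −0.48, −0.46, −0.40, −0.38, −0.33, −0.27, −0.27, −0.26, −0.22 and −0.22. DESeq2 called 18 lower and 3 higher, where 20.1% of all genes were lower and 20.1% higher. Rps27rt, Rps2, Rpl11, Rpl36 and Rps18 stayed called lower whichever library was left out. The Rpl24 call was lost without any one EM library or CM replicates 1, 2 or 3 (adjusted p between 0.0514 and 0.07). Rpl30, Rpl17 and Rpl9 also lost their calls without any one EM library or single CM libraries (adjusted p between 0.0511 and 0.111), and Rpl7a without CM replicate 1 (adjusted p = 0.0513). The number lower was 6 without EM replicate 3 or without EM replicate 4 and 16 without CV replicate 1. The shares of all genes called in those fits are not given here. With library totals 55 genes were higher and 0 lower, where 45.6% of all genes were higher and 7.24% lower. Of the 10 that fell, Rps18, Rpl24, Rpl7a, Rpl30, Rpl17 and Rpl9 then lay above 0 without a call (0.05, 0.11, 0.11, 0.11, 0.15 and 0.15).

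Rps4l, a low-abundance copy of Rps4x, was the other gene called higher in EM against CM. It had 20.5, 14.4, 19.9 and 18.9 CPM in EM against 13.7, 8.46, 10.3 and 12.8 CPM in CM, a log2 fold change of 0.70 ± 0.25 (adjusted p = 0.0399). In the EV and CV livers it had 11.5, 12.5, 15.8 and 11.9 CPM in EV against 31.1, 18.6, 20.4 and 10.4 CPM in CV, which overlapped, with −0.64 ± 0.25 (adjusted p = 0.047). Without CV replicate 1 the EV against CV value was −0.35 (adjusted p = 0.222). That call was also lost without most other single libraries, and with only the EV and CV libraries in the fit (adjusted p = 0.0892). The EM against CM call was lost without CM replicate 2 (0.58, adjusted p = 0.103) and without several other single libraries. With library totals it was at 1.08 in EM against CM (adjusted p = 0.00188) and −0.14 in EV against CV (adjusted p = 0.616).

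In EM against CV, 22 genes fell and 1 rose with TMM factors (20% of all genes fell and 20.7% rose), with a median of −0.12. Rps27rt (−0.60 ± 0.09, adjusted p = 9.05e-05), Rps2 (−0.57 ± 0.09, adjusted p = 0.000226) and Rpl36 (−0.49 ± 0.10, adjusted p = 0.00138) had the largest falls. Without CV replicate 1 the number lower was 13 and the number higher 3, with no share of all genes given here for that fit. DESeq2 called 25 lower and 2 higher, where 21% of all genes were lower and 21.6% higher. With library totals 49 genes were higher and 1, Rps27rt, lower (−0.22, adjusted p = 0.0367), where 46.3% of all genes were higher and 7.74% lower. The 3 comparisons with EE share control or treated libraries, so their counts are not independent of each other.

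MI763F made no call among these genes on its own. In CM against CV, 0 of the 85 genes were called in either direction by edgeR or by DESeq2, where 0.0929% of all genes were called higher and 0.0% lower by edgeR, and 1.23% and 0.481% by DESeq2. With library totals 0 genes were called too, where 0.0619% of all genes were higher. At an unadjusted p of 0.05, 3 of the 85 passed with library totals, beside 1306 of all 12918 genes. With TMM factors 2 passed it, Rps4l (−0.83 ± 0.25, adjusted p = 0.253) and Rps19bp1 (−0.38 ± 0.14, adjusted p = 0.338), beside 1362 of all 12918 genes. The median was −0.04. The stalk gene Rplp0 averaged 591 ± 58.5 CPM in CM and 564 ± 40 CPM in CV livers.

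MI763F on top of EE made no call either. In EM against EV, 0 genes were called in either direction by edgeR or DESeq2, where 1.51% of all genes were called higher and 0.178% lower by edgeR, and 3.74% and 0.735% by DESeq2. By edgeR 6 passed an unadjusted p of 0.05, where 1642 of all 12918 genes did. Yet 80 of the 85 lay above 0, with a median of 0.08 and a median SE of 0.09 per gene. Rps27l (0.25 ± 0.08, adjusted p = 0.172), Rpl22 (0.21 ± 0.08, adjusted p = 0.274) and Rpl24 (0.21 ± 0.09, adjusted p = 0.361) had the lowest p among them. Their EM and EV libraries did not overlap with TMM factors, and overlapped for each of these genes with library totals. The genes share libraries and scaling factors, so 80 of 85 is no count of independent changes. With library totals the median was −0.03 and 55 of the 85 genes lay below 0, where all genes had a median of −0.11.

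The difference between the EE effect with and without MI763F was tested as an interaction. It called 0 of the 85 genes with edgeR, where 0.101% of all genes were called higher and 0.031% lower. At an unadjusted p of 0.05, 10 of the 85 passed, where 1759 of all 12918 genes did. DESeq2 called 2 genes higher and 0 lower, where 2.31% of all genes were higher and 1.18% lower. The median was 0.13 (0.02 with library totals), beside 0.01 for all genes (−0.10 with library totals). The distance from the median of all genes was thus 0.12 on either scale. Rps4l (1.34 ± 0.36, adjusted p = 0.114) and Rpl22 (0.38 ± 0.12, adjusted p = 0.155) had the lowest p. The smaller number of falls in EM against CM than in EV against CV was therefore not matched by a gene whose EE effect differed by edgeR's test.

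Part of the ribosomal protein signal sits on other rows. Of the 85 genes, 83 had a coding sequence in the annotation, and 52 had or shared a row at least 95% identical over at least 80% of it. These rows formed 50 clusters with 72 rows that are not ribosomal protein genes by the rule, many of them processed pseudogenes. They held 21.1% of the combined sum in EM, 21.5% in EV, 21.4% in CM and 21.3% in CV livers. In 16 clusters the gene itself had under 50% of the counts. Rpl12, of the stalk base, had 4.62%, with 95.03% on the pseudogene Gm10275, and Rpl10, which completes the large subunit, had 14.5%, with 85.36% on Rpl10-ps3. The levels of such genes taken alone are uncertain.

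Adding the near-identical rows, an alternative chosen after the values were seen, changed single genes more than the whole. The numbers lower and higher were 38 and 2 in EV against CV, 9 and 2 in EM against CM, and 21 and 2 in EM against CV, of 83 combined genes; 25.6%, 19.5% and 20.8% of all genes were higher and 25.1%, 18.8% and 20.1% lower. In CM against CV and EM against EV there were 0 calls (2 and 5 genes at an unadjusted p of 0.05), where 0.0934% and 1.56% of all genes were higher. At that unadjusted p, 1363 and 1646 of all 12847 genes passed. Rpl12 alone had 34.7, 32.5, 25.1 and 20.4 CPM in EV against 20.4, 21.5, 24.3 and 23.4 CPM in CV, and was not called (0.33 ± 0.18, adjusted p = 0.138). Combined, Rpl12 had 631, 617, 604 and 591 CPM in EV against 611, 531, 442 and 473 CPM in CV and was called higher (0.25 ± 0.09, adjusted p = 0.0304). Rps6, the substrate of the S6 kinases, lost its call when combined (−0.20, adjusted p = 0.0719) and had −0.40 ± 0.10 alone (adjusted p = 0.00306; 0.09 with library totals, adjusted p = 0.482). Rpl11 kept its fall in EV against CV (−0.48, adjusted p = 0.000467) and lost it in EM against CM (−0.21, adjusted p = 0.0836), where Rpl24 and Rpl17 lost theirs too (adjusted p = 0.0647 and 0.0554).

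**Figure D4:**
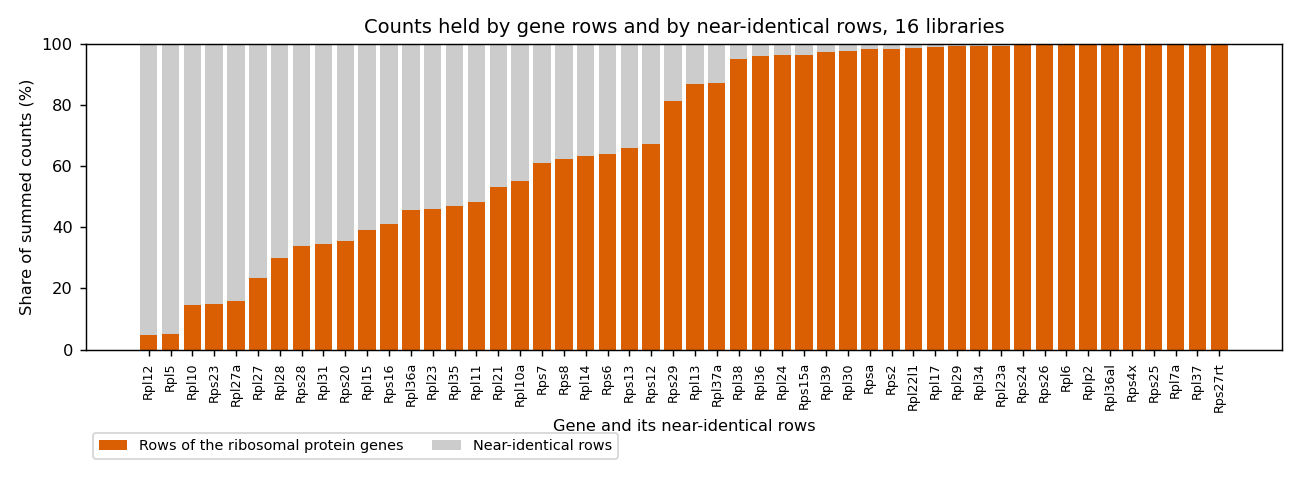
Share of summed counts (percent, all 16 libraries) on the rows of the ribosomal protein genes and on near-identical rows, for each of the 50 clusters. The share on the genes runs between 4.62% for Rpl12 and 100% for the Rpl37 and Rps27rt clusters, whose rows are all ribosomal protein genes by the rule.

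Fau and Rack1 were followed beside the 85 genes. Fau, a small-subunit protein made fused to a ubiquitin-like protein, had 563, 546, 535 and 532 CPM in EM and 529, 525, 515 and 483 CPM in EV, against 799.7, 746, 752 and 797 CPM in CM and 998, 935, 777 and 742 CPM in CV. With TMM factors all EE libraries lay below all others. The log2 fold change was −0.75 ± 0.09 in EV against CV (adjusted p = 5.5e-06) and −0.26 with library totals (adjusted p = 0.0141). Rack1, a scaffold on the small subunit, was not called in EV against CV (−0.03 ± 0.08, adjusted p = 0.814), and with library totals it was called higher (0.46, adjusted p = 0.000234).

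The mitochondrial ribosome had a similar median. Of its 78 genes, 31 fell and 5 rose in EV against CV with TMM factors, with a median of −0.21, and 44 rose and 2 fell with library totals, with a median of 0.28. Over all genes 24.9% fell and 25.5% rose with TMM factors, and 54.6% rose and 10.3% fell with library totals, and these shares are the background for the EV against CV counts of the lists that follow. Single members moved further: Mrpl14 was at −1.15 ± 0.10 (adjusted p = 2.15e-07), Mrpl12 at −0.86 ± 0.08 (adjusted p = 9.75e-07) and Mrps18a at 2.01 ± 0.12 (adjusted p = 1.48e-08). These 3 kept call and direction with library totals (−0.67, −0.38 and 2.49).

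Elongation factors and other TOP mRNAs fell in 8 of 16 cases and rose in 4, with a median of −0.26 (with library totals 9 rose and 0 fell, at a background of 54.6% and 10.3%). Eef2, which moves the ribosome along the mRNA, averaged 595 ± 20.1 CPM in EV and 861 ± 63 CPM in CV (−0.53 ± 0.08, adjusted p = 6.97e-05), and −0.05 with library totals. Eef1d fell by 0.63 ± 0.09 (adjusted p = 4.06e-05), and Nap1l1, a histone chaperone, rose by 1.10 ± 0.15 (adjusted p = 2.18e-05). With library totals Eef1d was not called (−0.15, adjusted p = 0.164) and Nap1l1 rose by 1.58. Hosts of small nucleolar RNAs, also TOP transcripts, fell in 4 of 10 cases with 0 rises (3 and 3 with library totals). Snhg8 averaged 36.9 ± 5.63 CPM in EV and 74.3 ± 17.4 CPM in CV (−1.01 ± 0.15, adjusted p = 4.9e-05), and −0.52 with library totals (adjusted p = 0.00524).

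Of 22 initiation factors, 4 fell and 3 rose, where 24.9% and 25.5% of all genes did, among them Eif1, which guards start codon choice (−1.07 ± 0.11, adjusted p = 1.8e-06), and Eif1a (1.02 ± 0.12, adjusted p = 5.83e-06). Of 13 subunits of eIF3, 2 fell and 1 rose, with a median of 0.00. With library totals 15 of the 22 rose and 1 fell, and 12 of the 13 rose, where 54.6% of all genes rose. Eif1 and Eif1a kept call and direction (−0.58 and 1.51).

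Genes for ribosome assembly had a median above 0. Of 40 biogenesis genes, 14 rose and 3 fell in EV against CV with TMM factors, with a median of 0.18, and 33 rose with library totals, where 25.5%, 24.9% and 54.6% of all genes did. Nhp2, of the pseudouridylation complex, averaged 43 ± 4.24 CPM in EV and 28 ± 2.56 CPM in CV (0.62 ± 0.11, adjusted p = 0.000187). Ddx21 and Bop1, which act in rRNA processing, rose by 0.56 ± 0.11 and 0.53 ± 0.10 (adjusted p = 0.000454 and 0.000479), and Emg1, an rRNA methyltransferase, fell by 0.69 ± 0.09 (adjusted p = 9.02e-06). With library totals Nhp2, Ddx21 and Bop1 rose by 1.10, 1.04 and 1.01, and Emg1 was not called (−0.21, adjusted p = 0.0569). In EM against CM 17 of the 40 rose and 3 fell, where 19.4% of all genes rose and 18.6% fell.

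RNA polymerase I genes were called in 7 of 20 cases, 3 higher and 4 lower, both shares below the 25.5% and 24.9% of all genes, with Ubtf, its upstream factor, at −0.40 ± 0.10 (adjusted p = 0.00512). With library totals 11 rose and 0 fell, close to the 54.6% of all genes that rose, and Ubtf was not called (0.08, adjusted p = 0.536). Among 18 genes of mTORC1 and TOP control, 7 fell and 3 rose, and 9 rose and 0 fell with library totals, where 24.9% of all genes fell and 25.5% rose, and 54.6% rose with library totals. Deptor, an inhibitor of mTOR, fell by 0.59 ± 0.07 (adjusted p = 2.91e-06) and Tsc1, a brake on mTORC1, by 0.73 ± 0.15 (adjusted p = 0.000697). With library totals neither was called. The list had a median of −0.10 and a mean of 0.17 with TMM factors, so these falls do not stand for the list. The genes that rose are not named here, and mTORC1 activity was not tested.

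**Figure D5:**
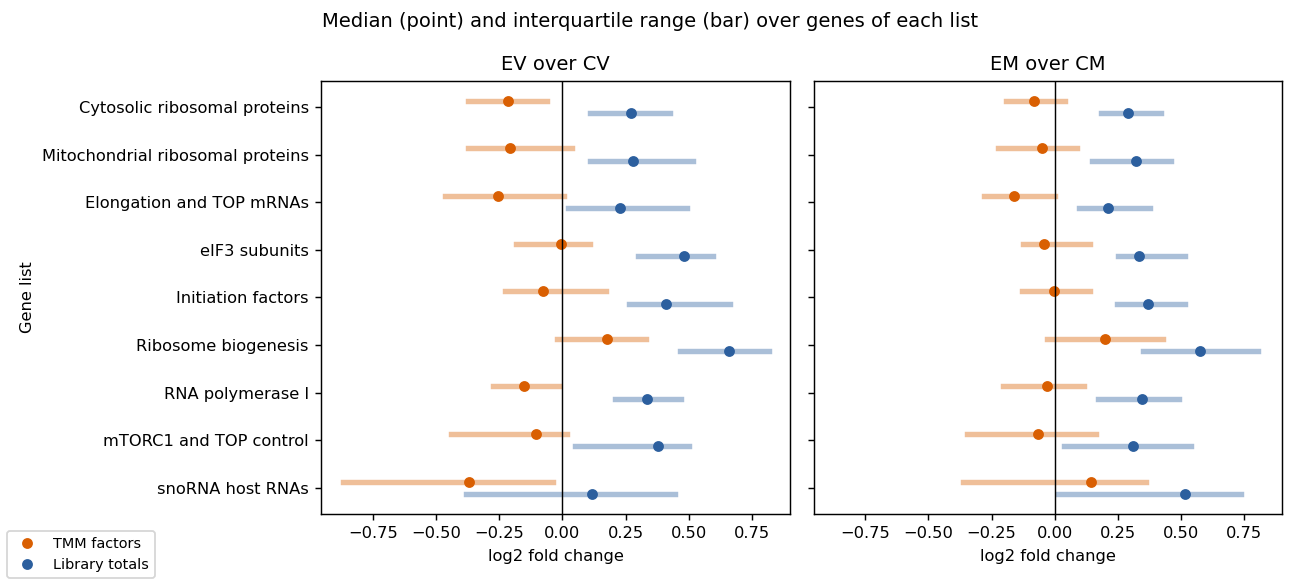
Median (point) and interquartile range (bar) of the log2 fold change over the genes of each list, EV over CV (left) and EM over CM (right), with TMM factors and library totals. With TMM factors the cytosolic and mitochondrial ribosomal proteins lie below 0 in EV over CV (−0.21 each) and the biogenesis genes above 0 (0.18).

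Cell type markers moved with EE in the same libraries. Hepatocyte markers fell in 10 of 12 cases in EV against CV with TMM factors (8 fell and 2 rose with library totals), where 24.9% of all genes fell (10.3% with library totals), and their summed level was 44664 to 63831 CPM in EM, 38794 to 48525 in EV, 108570 to 134940 in CM and 110500 to 140240 in CV. Macrophage markers rose in 11 of 13 cases, where 25.5% of all genes rose, at 1912 to 3209 CPM in EM, 2334 to 2729 in EV, 399 to 813 in CM and 385 to 992 in CV. Red cell genes rose in 5 of 5 cases (1807 to 4017 CPM in EM, 2527 to 3469 in EV, 841 to 1370 in CM and 984 to 1967 in CV), and proliferation genes rose in 19 of 20 and fell in 1 (132 to 352 CPM in EM, 191 to 262 in EV, 90.0 to 132 in CM and 95.8 to 130 in CV).

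Endothelial markers rose in 6 of 11 cases with 0 falls (243 to 323 CPM in EM, 305 to 351 in EV, 170 to 259 in CM and 127 to 266 in CV). Lymphoid and neutrophil markers rose in 5 of 8 cases (63.2 to 158 CPM in EM, 72.6 to 158 in EV, 24.4 to 56.7 in CM and 10.7 to 27.7 in CV). Stellate cell markers rose in 3 of 11 cases and fell in 1, and with library totals 4 rose and 0 fell, near or under the 25.5% and 54.6% of all genes that rose (187 to 264 CPM in EM, 199 to 215 in EV, 225 to 306 in CM and 184 to 330 in CV). Cholangiocyte markers rose in 2 of 5 cases (89.7 to 194 CPM in EM, 137 to 203 in EV, 63.0 to 88.6 in CM and 48.0 to 62.7 in CV). Of the 2 pancreatic acinar genes measured 1 rose, Cela2a. The summed level of these acinar genes overlapped between groups (16.1 to 29.3 CPM in EM, 15.5 to 29.8 in EV, 9.54 to 22.0 in CM and 17.2 to 29.8 in CV). Every marker measured had counts in at least 1 library, and the hepatocyte genes were the most abundant list in all groups. The part of these cell types in the ribosomal protein values was not tested.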

How the data were processed

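Per the labels' protocols, polyadenylated RNA from liver was made into NEBNext Ultra libraries. The submitters' processing notes name GRCm39, STAR and Salmon, without roles or versions; the sources used here give no annotation, counting step or strand handling. The table deposited by the authors holds estimated counts for 13006 genes, all whole numbers. Among 731 genes at 0 in some library (82.9% with a known length), the median smallest nonzero value was 59 under 400 bp and 1 from 4000 bp on, as for values divided by gene length. With no rounding needed they entered the count test as they stand, so a value of 1 is not 1 read and no counting intervals are given. At most 3.24% of genes held equal values in any pair of libraries.

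Symbols came from GENCODE M21, an annotation of an earlier build, for 12692 identifiers. The filter filterByExpr left 12918 genes. edgeR 4.0.16 in R 4.3.3 (TMM, robust glmQLFit, 1 coefficient per group, 16 libraries, 12 residual degrees of freedom, biological coefficient of variation 0.284) tested 6 contrasts, with Benjamini-Hochberg adjustment over all genes and a threshold of 0.05. SE is the log2 fold change over the root of the F statistic. Near-identical rows were found with blastn 2.17.0. The procedure was checked on simulated counts with few changed genes, in both directions, and no shift in library composition. That check cannot bear on the choice of scaling. Figures used matplotlib 3.10.9 in Python 3.11.15.

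The genes and lists were chosen with earlier results of these data known. Named genes were, per contrast, up to 6 called in each direction by size, the 6 with the highest counts, a fixed set, and up to 4 per list by p in EV against CV; the text prints some of these, picked after their values were seen. Rpl7a, Rpl30, Rpl17, Rpl9, Rpl12, Gm10275 and Rpl10-ps3 lie outside the rule and were named after their values were seen. Rpl3l, Rpl10l and Rpl39l of the fixed set were not analysed here. Settled by hand or after values were seen: the division into canonical genes and copies, the printed sequences and plotted genes, the reading of the tract rule, the length bins of the unit check, and the summing with near-identical rows. That matching first used whole transcripts and was changed to coding sequences because it missed genes already seen to be low. Alternatives were library totals, RLE factors, TMM factors computed without the 85 genes, both no filter and a minimum of 1 CPM in 8 libraries, leaving out each library, a block by replicate number, fits of the compared groups alone, DESeq2 1.42.0, and the share without the 20 most abundant genes. Values of some single genes are not reported here.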

Additional observations from a re-analysis of the deposited data

Results flagged for a closer look

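In 9 of 160 combinations of a named gene and a group, 1 of 4 libraries lay apart from the other 3 by Dixon's criterion; chance gives about 1 in 20. Values are CPM with TMM factors. Rpl11 had 298.1 in EM replicate 3 and 317.3 to 321.0 in the other EM libraries. Rpl13a had 1647 in CV replicate 1 and 1230 to 1294 in the others. Rpl22l1 had 110.3 in CV replicate 1 and 64.94 to 72.42 in the others, which bears on its EV against CV overlap. Rpl28, a large-subunit protein, had 381.5 in CM replicate 1 and 243.1 to 265.5 in the others. Rpl7 had 472.3 in EV replicate 1 and 434.6 to 438.2 in the others. Rps27 had 25.31 in EM replicate 1 and 4.452 to 7.948 in the others. Rps6 had 308.6 in EV replicate 4 and 381.1 to 395.0 in the others. Rpsa had 576.0 in CM replicate 1, with 533.7 to 540.6 in the others, and 462.1 in EM replicate 1, with 538.6 to 544.1 in the others.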

How the results depend on the processing

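Scaling decided most directions. With library totals the median of the 85 genes was 0.27 in EV against CV, 0.29 in EM against CM, 0.26 in EM against CV and −0.025 in EM against EV. The numbers higher were 53, 55 and 49 and the numbers lower 1, 0 and 1 in EV against CV, EM against CM and EM against CV. Signs turned with library totals in EM against CM for Rps18 (0.049), Rpl24 (0.11), Rpl7a (0.11), Rpl30 (0.11), Rpl17 (0.15) and Rpl9 (0.15). In EV against CV they turned for Rpl11 (0.044), Rpl28 (0.034), Rps19bp1 (0.044), Rplp1 (0.27), Rpl41 (0.46), Rpl13a (0.26), Rps29 (0.41), Rplp2 (0.29), Rpsa (0.27), Rpl3 (0.43), Rpl7 (0.23), Rpl10 (0.13), Rpl26 (0.17), Rpl36a (0.31), Rpl39 (0.36), Rps3 (0.36), Rps4x (0.40), Rps6 (0.087), Rps19 (0.39), Rps20 (0.12), Rps27l (0.021), Rps27a (0.22), Rack1 (0.46), Eif3f (0.037), Eif3h (0.17), Eif3i (0.30), Eif2b5 (0.032), Ubtf (0.084) and Polr2f (0.080). These follow from scaling alone, since the counts are the same.

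RLE factors, TMM factors without the 85 genes and both other filters changed no count by over 1.5 times and no named call. DESeq2 called 18 lower in EM against CM, 2 higher in EM against CV and 2 higher in the interaction. With only the groups compared, 14 were lower and 2 higher in EM against CV, with no share of all genes given here for that fit. Summing near-identical rows, added after seeing the data, gave 2 higher in EV against CV and 2 in EM against CV. Among single named genes, DESeq2 added 4 calls (Rplp1, Rplp2, Rpsa and Eif3i in EV against CV), the groups compared alone added 1 and lost 7, and summing added 2 and lost 4. The cause was not tested. Without the 20 most abundant genes the share was 5.64% in EM, 5.66% in EV, 4.81% in CM and 5.01% in CV.

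Leaving out each library gave 27 to 43 lower and 0 to 2 higher in EV against CV, 6 to 16 and 1 to 3 in EM against CM, 13 to 26 and 1 to 3 in EM against CV, and 0 to 1 higher in the interaction. The shares of all genes called in these fits are not given here, so the ranges show no change particular to these genes. Replicate numbers did not pair the libraries. For this, each library's deviations from its group mean (log CPM) were correlated with those of libraries in other groups. These correlations ran between −0.0524 and 0.0957 in 24 same-numbered pairs. Their median was 0.00322, against −0.00442 in the other pairs, and 6 of 16 libraries correlated best with their own number. With the replicate block 35 were lower and 1 higher in EV against CV, and Rpl10 and Rps4l lost their calls there (adjusted p = 0.0723 and 0.0572). The share of all genes called with the block is not given here either. Because the values are not reads, the counting error of low genes such as Rps4l and Rps27 is larger than their counts imply.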
